A study of Homo sapiens with 32 samples.

Results

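The genes described here are receptors that steer B cells: CXCR4, CXCR5, CCR6, CCR7, CCR9 and CCR10, which bind chemokines, GPR183 (once called EBI2), which binds an oxysterol, S1PR1 and S1PR2, which bind sphingosine 1-phosphate, and P2RY8. They were chosen by name, and each gene was read from the transcript cluster (the probes that the array assigns to a gene) that carried its symbol and no other. Of the 10 genes, 9 had such a cluster, among 14405 clusters with a single symbol and 21788 clusters in all, and no gene had more than 1. P2RY8, which confines B cells to the germinal centre, was not analysed here because no cluster was matched to it in the symbol table used. CCR6 also shared a further cluster with CEP43, which was left out.

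All of these proteins cross the membrane and act through G proteins. Chemokine receptors follow gradients of small secreted proteins that stromal and epithelial cells make: CXCR4 follows CXCL12 and holds B cells in bone marrow and germinal centres, CXCR5 follows CXCL13 into follicles, and CCR7 follows CCL19 and CCL21 to the T cell zone. GPR183 brings B cells to the outer follicle and was first found as a gene induced by Epstein-Barr virus, while S1PR1 lets lymphocytes leave lymphoid organs and S1PR2 keeps them in place.

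The cells were B-lymphoblastoid cell lines (B cells immortalized with Epstein-Barr virus) from 7 HapMap donors. All cultures were given 200 µM 4-thiouridine (4sU) for 2 h, and there was no unlabelled control. From each culture, RNA that had taken up the label (nascent RNA) and unseparated total RNA went onto different exon arrays, 16 for each fraction. GM07029, GM10835 and GM12813 had 3 independent cultures each, the last with every array repeated as a technical duplicate, and GM07019, GM12812, GM12814 and GM12815 had 1 culture each. Values are log2 intensities, and a ratio is nascent minus total log2 value relative to the median cluster of the same culture, so that 0 means the same share of new RNA as that cluster.

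The cells carried B cell markers: all 10 on the array lay above background, among them MS4A1, CD79A, CD22 and PAX5. All 6 plasma cell markers did so too. Of other cell types, the array detected 3 of 12 markers for T or NK cells (CD7, CD28 and NKG7), 0 of 7 for myeloid cells and 5 of 10 for fibroblasts or epithelium. Mean total RNA of the T and NK list lay between 5.47 and 5.64 in the 7 lines, with CD3D at 3.96, CD7 at 8.03 and NKG7 at 7.68. LYZ of monocytes stood at 3.50, and the keratins KRT8 and KRT18 at 10.35 and 7.11. Their part in the results was not tested. Background was the 95th percentile of 216 olfactory receptor clusters, 6.40 over all arrays, 5.97 in total and 6.84 in nascent RNA. All 9 receptor clusters passed it on their mean over 32 arrays, as did 65.0% of all clusters. Fewer total RNA arrays passed the 5.97 line for CCR9 (12 of 16), CCR6 (13) and CXCR5 (15), and for CXCR5 only 11 of 16 nascent arrays lay above 6.84.

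Promoter letters are shown from the reference genome, and a motif match is a description of the letters only. The sequences of the lines themselves were not read, so these letters cannot show differences between lines. RefSeq (GRCh38.p14) gave 12 windows, each from 250 bases before to 50 after a start, for 7 of the 9 genes: CXCR4, CXCR5, CCR6, CCR9, GPR183, S1PR1 and S1PR2. The octamer ATGCAAAT, bound by OCT factors of B cells, was in 1.77% of all 35116 windows on either strand, and among the receptors only in a CCR6 window, 84 to 77 bases before the start. TATAAA was in 11.5% of all windows and in windows of CXCR4 (30 to 25 bases before the start), CCR9 and GPR183. The letters ACTTCC (22.8% of all windows) were in windows of CCR6 and GPR183, and TGACGTCA (1.85%) in that of S1PR2. CCACACCC (3.28%), TGANTCA (7.71%) and the NF-kB motif (5.91%) matched no receptor window. Both sequences are printed in the direction of the gene, at chr6:167123001-167123030 (plus strand) for CCR6 and chr2:136118162-136118191 (minus strand) for CXCR4. The capitals mark the reverse complement of the octamer in CCR6 and TATAAA itself in CXCR4, where its reverse complement also matches, overlapping it:

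CCR6, octamer: catggttaaccATTTGCATttgggcaaata

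CXCR4, TATA: ggagcgtgttttTATAAAagtccggccgcg

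The first comparison asked where the receptors stood in the share of newly made RNA over all lines. CXCR4, CCR6, S1PR1, S1PR2 and CCR9 had ratios above the median cluster, CCR7 had one below it, and GPR183, CCR10 and CXCR5 did not pass the test. Thus 5 of the 9 were higher, where 31.7% of the 14167 clusters tested were higher, and 1 was lower, where 31.7% were lower. The median of the 9 mean ratios was 0.27, against -0.01 over all clusters tested. Tests were limma fits over 7 line values against 0, with Benjamini-Hochberg adjustment over all clusters tested and a threshold of 0.05. Without centring all 9 mean ratios were positive, and the median cluster then stood at 0.77. Ratios of the 216 olfactory receptor clusters that set the background had a median of -0.12 and lay between -0.81 and 0.51 (5th to 95th percentile), so a ratio near 0 in a dim cluster carries little information.

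**Figure D1:**
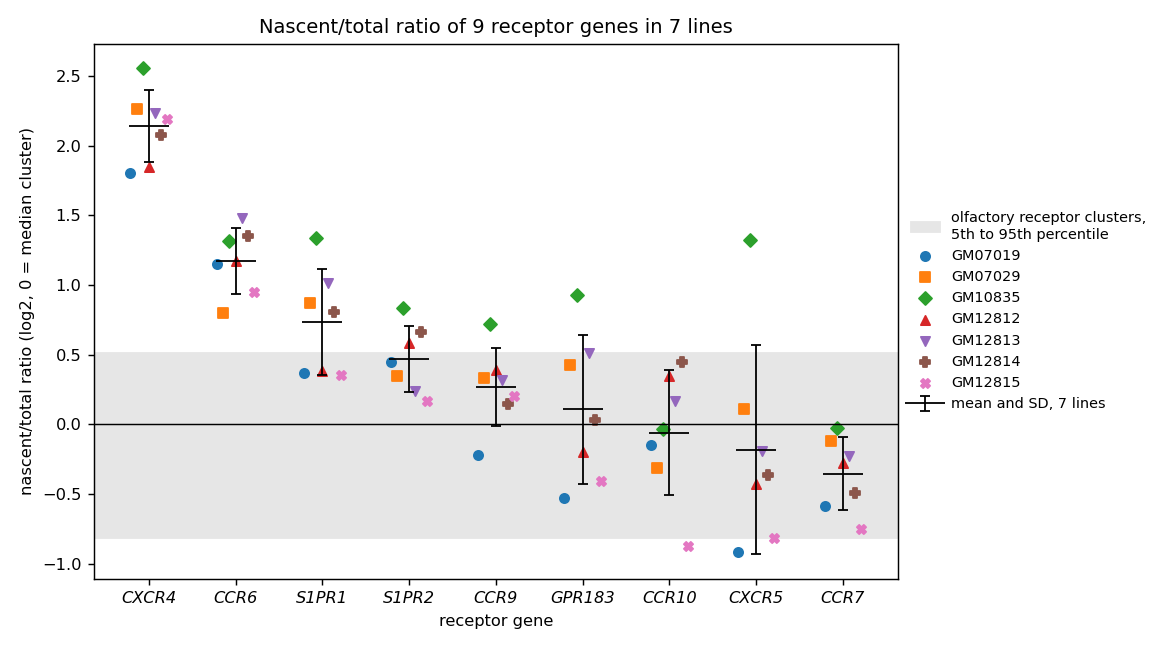
Nascent/total ratio (log2, 0 being the median cluster of the culture) of the 9 receptor genes on the vertical axis, 1 symbol per line, with the mean and SD over 7 lines as black bars and the 5th to 95th percentile of olfactory receptor clusters in grey. CXCR4 and CCR6 lie above the grey band in all 7 lines, and the CXCR5 value of GM10835 stands apart from its other lines.

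CXCR4 had the highest ratio of the 9. It stood at 2.55 in GM10835, 2.27 in GM07029, 2.23 in GM12813, 2.19 in GM12815, 2.08 in GM12814, 1.85 in GM12812 and 1.80 in GM07019. No line came near 0, and no neighbouring lines in this order differed by more than 2 SDs between cultures of a line (SD 0.21, pooled over the 3 replicated lines). The mean was 2.14 ± 0.26 (SD, n = 7 lines, adjusted p = 4.83e-07), a 4.40-fold higher nascent share than the median cluster, and 0.988% of all clusters tested had a higher ratio. Its nascent level ran from 10.02 (median 10.48) to 11.81, and its total level from 6.99 (median 7.75) to 8.43.

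CCR6, the receptor for CCL20 of gut and skin epithelium, came next. Its ratio was lowest in GM07029 (0.80), had a median of 1.17 and was highest in GM12813 (1.48). Every line lay above the 95th percentile of olfactory receptor clusters, and no neighbouring lines were more than 2 SDs between cultures (SD 0.22) apart. The mean was 1.17 ± 0.24 (n = 7 lines, adjusted p = 1.94e-06), a 2.26-fold higher share than the median cluster, with 6.78% of clusters above it. The total level in GM10835 (5.85) was under the background of 5.97, so the size of the ratio there (1.31) is uncertain. The cluster shared with CEP43, which was left out, had a mean ratio of -0.01 and total RNA from 7.37 to 8.21 over the lines. Which gene that cluster reads was not tested.

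Both sphingosine 1-phosphate receptors had ratios above 0 in every line. S1PR1 ran from 0.35 in GM12815, 0.36 in GM07019 and 0.38 in GM12812 through 0.80 in GM12814, 0.87 in GM07029 and 1.01 in GM12813 to 1.34 in GM10835. The first 3 lines lay together, and the step to GM12814 and that to GM10835 each exceeded 2 SDs between cultures (SD 0.15). The S1PR1 mean was 0.73 ± 0.38 (n = 7 lines, adjusted p = 0.000337). S1PR2 was lowest in GM12815 (0.17), had a median of 0.45 and was highest in GM10835 (0.83), with a mean of 0.47 ± 0.24 (n = 7 lines, adjusted p = 0.00101). No step between neighbouring lines exceeded 2 SDs for S1PR2.

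CCR9, which follows CCL25 to the small intestine, had a mean ratio of 0.27 ± 0.28 (n = 7 lines, adjusted p = 0.0364), from -0.22 in GM07019 to 0.72 in GM10835. That call was lost with quantile normalization (adjusted p = 0.0661), with a signal trend taken out of the ratios (0.182), with 13 cultures and the line as a random block (0.0728), and without any 1 of GM07029, GM10835, GM12812, GM12813 or GM12815 (adjusted p from 0.0520 to 0.0928), and total RNA lay under background in GM12812 (5.70) and GM12814 (5.86). CCR7 was below 0 in every line, with -0.02 in GM10835, -0.12 in GM07029, -0.23 in GM12813, -0.28 in GM12812, -0.49 in GM12814, -0.59 in GM07019 and -0.75 in GM12815. Its mean was -0.35 ± 0.26 (n = 7 lines, adjusted p = 0.00675). After a signal trend was taken out of the ratios, CCR7 stood at 0.10 (adjusted p = 0.501). Its place under the median cluster thus depends on whether that trend is taken out. Without centring CCR7 stood at 0.42, still under the median cluster at 0.77.

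The other 3 receptors were split between lines. GPR183 ranged from -0.53 in GM07019 to 0.93 in GM10835 with a mean of 0.11 ± 0.53 (n = 7 lines, adjusted p = 0.570), above 0 in 4 lines. CCR10, a receptor for CCL27 and CCL28 of skin and mucosa, ranged from -0.87 in GM12815 to 0.44 in GM12814 with a mean of -0.06 ± 0.45 (n = 7 lines, adjusted p = 0.722). CXCR5 had the widest range of the 9, from -0.92 in GM07019 to 1.32 in GM10835, and a mean of -0.18 ± 0.75 (n = 7 lines, adjusted p = 0.479). Without GM10835 the CXCR5 mean was -0.43 (adjusted p = 0.0101) and that of GPR183 -0.03 (adjusted p = 0.875). CXCR5 nascent RNA lay under the background of 6.84 in GM07019 (6.51), GM12812 (6.75), GM12814 (6.36) and GM12815 (6.60). The size of the CXCR5 ratios in those lines, and of the mean without GM10835, is therefore uncertain. Without GM12815 the CCR10 mean was 0.08 (adjusted p = 0.573).

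The second comparison asked how much the levels themselves differed between lines, in the 9 cultures of GM07029, GM10835 and GM12813. Since each line came from a different donor, donor and line cannot be told apart. All 9 receptors differed between these lines in total RNA, where 56.3% of all clusters tested did, and all 9 in nascent RNA, where 56.7% did (limma's moderated F test, adjusted p from 2.81e-07 to 0.0118 in total and from 5.54e-09 to 0.000209 in nascent RNA). The median range of line means over the 9 was 1.25 in total and 1.47 in nascent RNA, against 0.45 and 0.35 over all clusters tested. The cultures of the 3 lines did not overlap for 5 of the 9 receptors in total RNA, against 13.7% of all clusters tested, and for 8 in nascent RNA, against 22.4%. For CCR7 and S1PR1 the cultures of GM07029 and GM12813 came very close in total RNA. That pair of lines did not pass for either gene (pairwise limma test, adjusted p = 0.161 for CCR7 and 0.0542 for S1PR1). In bulk RNA, fewer cells that carry a transcript and less of it per cell cannot be told apart.

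**Figure D2:**
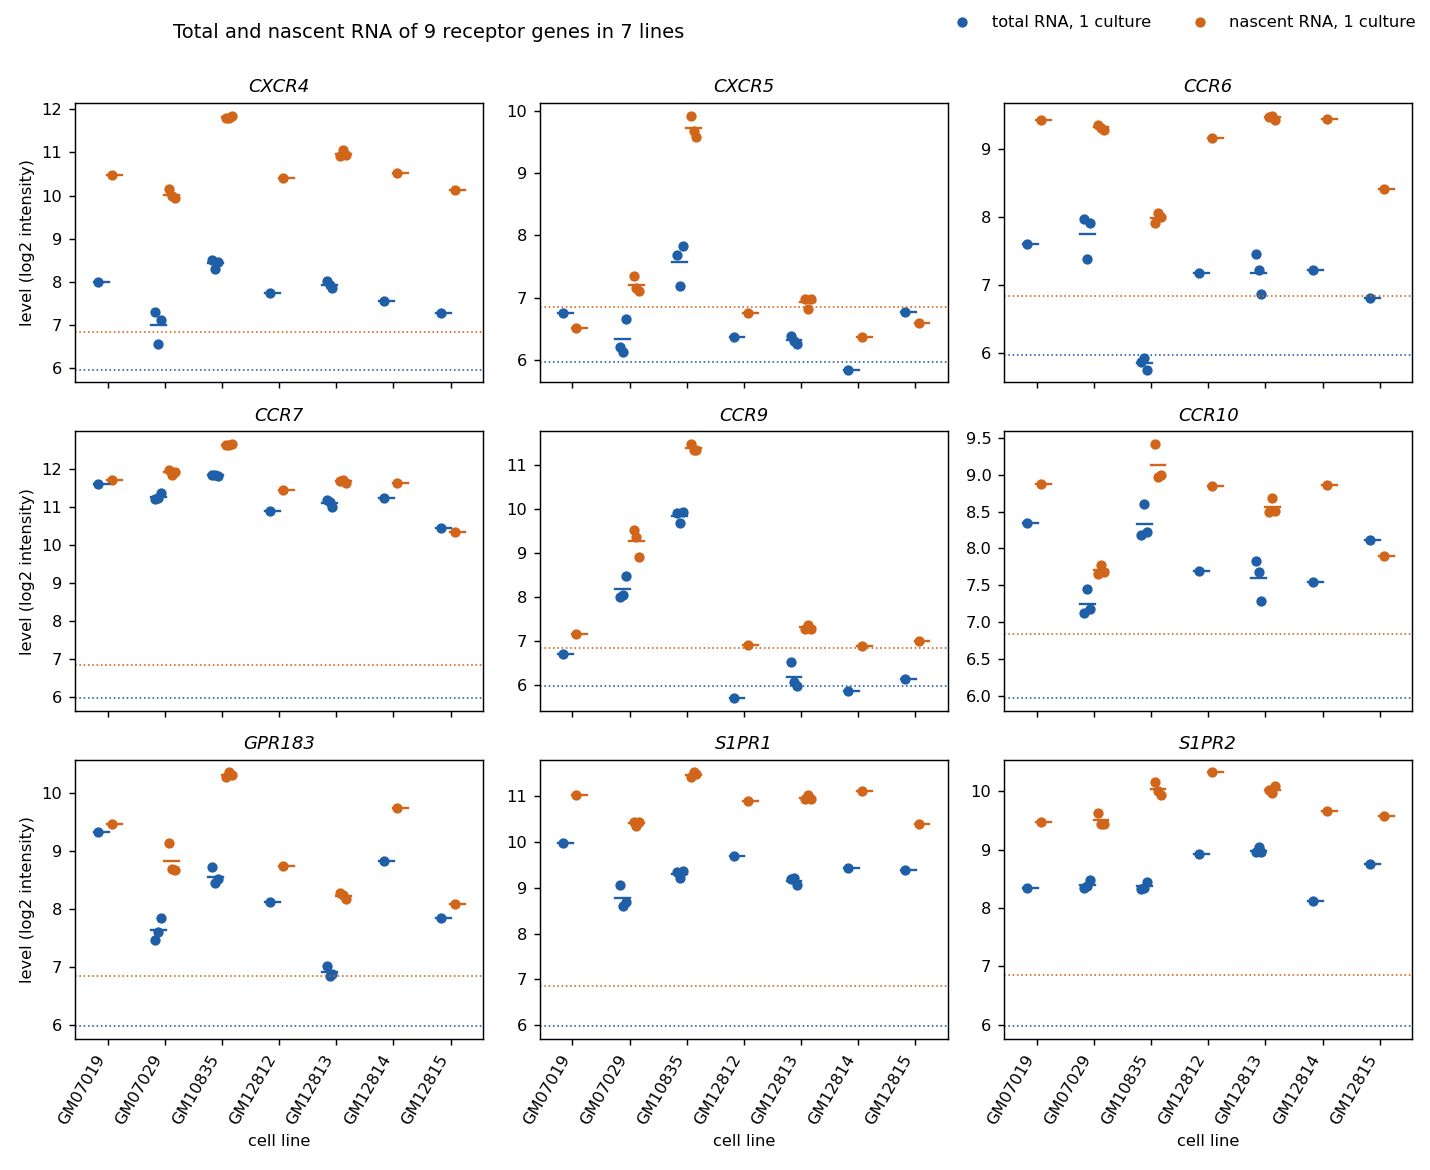
Log2 level of each receptor gene (vertical axis, each panel with its own scale) in the 7 lines, 1 point per culture and short bars for line means, total RNA in blue and nascent RNA in orange, with dotted lines at the background of each fraction (5.97 and 6.84). CCR9 is far above background in GM10835 and GM07029 and much closer to it in the other 5 lines.

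CCR9 had the widest range of the 9 between the replicated lines. Its total RNA stood at 9.91, 9.69 and 9.93 in the cultures of GM10835, at 8.01, 8.04 and 8.48 in GM07029 and at 6.52, 6.06 and 5.98 in GM12813. The single cultures gave 6.71 in GM07019, 6.14 in GM12815, 5.86 in GM12814 and 5.70 in GM12812. GM10835 was thus highest and GM07029 second with no overlap, and the last 4 lines (GM12813, GM12815, GM12814 and GM12812) lay within 2 SDs of each other's neighbour near background. GM12812 and GM12814 were under the total RNA background of 5.97, so the range over 7 lines has no exact size in that fraction. Nascent RNA kept the order of the replicated lines, with 11.39 ± 0.08 (SD, n = 3 cultures) in GM10835, 9.27 ± 0.32 in GM07029 and 7.31 ± 0.05 in GM12813 (adjusted p = 5.54e-09, and adjusted p = 2.81e-07 in total RNA). Total RNA of GM12813 lay close to background too, so the size of its difference from GM10835 (3.65) is uncertain.

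CXCR5 was high in 1 line. Nascent RNA was 9.92, 9.67 and 9.57 in the cultures of GM10835, and 7.35, 7.16 and 7.11 in those of GM07029, whereas the other 5 lines lay between 6.36 and 6.93. GM12812, GM12815, GM07019 and GM12814 were under the nascent background of 6.84. Total RNA was 7.69, 7.19 and 7.82 in GM10835, and 6.32 ± 0.07 in GM12813 and 6.33 ± 0.28 in GM07029, which overlapped each other. The difference of GM10835 from GM07029 was 2.51 ± 0.11 (SE) in nascent RNA (adjusted p = 2.61e-08) and 1.23 ± 0.18 in total RNA (adjusted p = 0.000214).

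CCR6 ran the other way. Its total RNA was 5.87, 5.92 and 5.76 in GM10835, 7.46, 7.22 and 6.87 in GM12813 and 7.97, 7.38 and 7.92 in GM07029. GM10835 was lowest of all 7 lines in both fractions, and GM12815 was the next lowest (6.81 in total and 8.41 in nascent RNA). Nascent RNA in GM10835 (7.99 ± 0.07) was 1.33 ± 0.07 (SE) below that in GM07029 (adjusted p = 1.42e-07), while GM12813 minus GM07029 came to 0.15 ± 0.07 and did not pass (adjusted p = 0.185).

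GPR183 also varied widely. In total RNA it was highest in GM07019 (9.33), followed by GM12814 (8.83), GM10835 (8.56 ± 0.14), GM12812 (8.12), GM12815 (7.85), GM07029 (7.64 ± 0.19) and GM12813 (6.91 ± 0.09). Steps over 2 SDs between cultures lay below GM07019, below GM10835 and above GM12813. The step from GM12814 to GM10835, and those from GM12812 to GM12815 and from GM12815 to GM07029, were smaller. Only neighbouring lines were compared in this way, so small steps do not mean that GM12812 and GM07029 were alike. In nascent RNA GM10835 came first (10.32 ± 0.04), then GM12814 (9.74) and GM07019 (9.47), and GM12813 (8.23) and GM12815 (8.09) were last. GM10835 was highest in nascent RNA for 35.6% of all clusters tested, and GM12815 lowest for 45.1%. Among the replicated lines GM10835 exceeded GM12813 by 2.09 ± 0.11 (SE) in nascent RNA (adjusted p = 1.76e-07) and by 1.65 ± 0.12 in total RNA (adjusted p = 3.38e-06).

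CXCR4 and CCR7 were both highest in GM10835. CXCR4 total RNA was 8.51, 8.31 and 8.47 in GM10835, 8.02, 7.93 and 7.86 in GM12813 and 7.30, 6.56 and 7.12 in GM07029, with no overlap (adjusted p = 0.000109). Its nascent RNA kept that order at 11.81 ± 0.03, 10.97 ± 0.07 and 10.02 ± 0.11 (adjusted p = 1.72e-08). CCR7 stood at 11.82 ± 0.01 in total and 12.6 ± 0.02 in nascent RNA there, but GM07029 (11.26 and 11.90) was above GM12813 (11.10 and 11.67), and the difference of these last lines passed in nascent RNA (adjusted p = 0.00736) and not in total RNA (adjusted p = 0.161). Over 7 lines CCR7 was lowest in GM12815 in both fractions, at 10.44 in total and 10.34 in nascent RNA. That line, a single culture, was also lowest for 25.3% of all clusters tested in total RNA and for 45.1% in nascent RNA.

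CCR10, S1PR1 and S1PR2 complete the set. CCR10 total RNA was 8.33 ± 0.23 in GM10835, 7.60 ± 0.28 in GM12813 and 7.25 ± 0.17 in GM07029, where the last 2 overlapped. S1PR1 total RNA ranged over 0.53 and its nascent RNA over 1.06, from 10.42 ± 0.05 in GM07029 through 10.97 ± 0.05 in GM12813 to 11.48 ± 0.05 in GM10835. In total RNA S1PR1 was higher in GM10835 than in GM07029 (adjusted p = 0.00579), and the other pairs did not pass. S1PR2 was the only receptor of the 9 with its highest total RNA in GM12813 among the replicated lines (8.99 ± 0.05, against 8.40 ± 0.07 in GM07029 and 8.37 ± 0.07 in GM10835). In nascent RNA S1PR2 gave 10.16, 10.01 and 9.95 in GM10835, 10.02, 9.98 and 10.09 in GM12813 and 9.63, 9.44 and 9.44 in GM07029. GM07029 was lower than both, and GM12813 minus GM10835 was -0.01 ± 0.08 (SE), which did not pass.

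**Figure D3:**
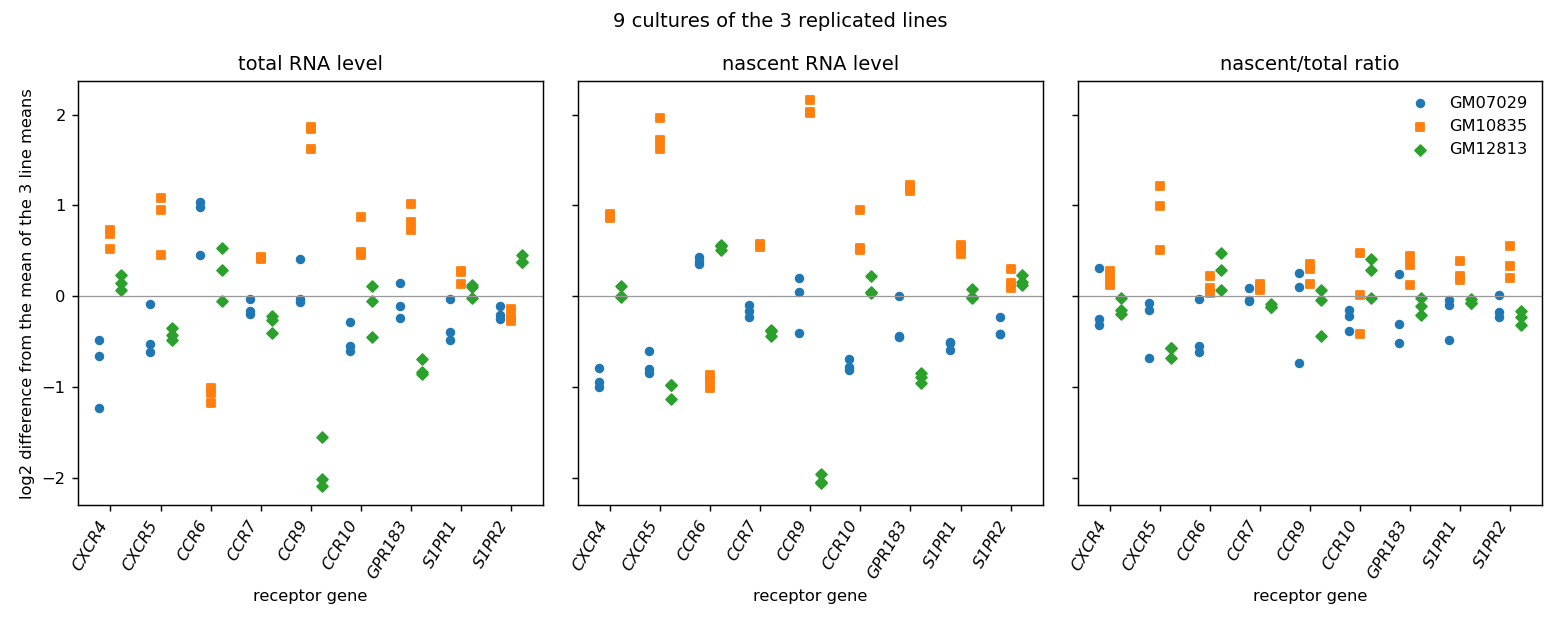
Total RNA, nascent RNA and nascent/total ratio of the 9 receptor genes in the 9 cultures of 3 lines, each as the log2 difference from the mean of the 3 line means, 1 point per culture, on 1 shared vertical scale. The cultures of GM10835 are above the other lines in nascent RNA for 7 of the 9 genes, below them for CCR6 and overlap with GM12813 for S1PR2. The ratio range exceeds the total RNA range for CXCR5 (1.52 against 1.25) and is below it for the other 8.

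The ratio itself was also compared between these lines. It differed for CXCR5, S1PR2 and CCR6, 3 of the 9 receptors, where 25.4% of all clusters tested differed between the 3 lines. The count was 7 after a signal trend was taken out of the ratios (3899 clusters in all, 3595 without that step) and 5 with quantile normalization (4052 clusters). The ratios of the cultures separated all 3 lines for 0 of the 9 receptors, against 5.84% of all clusters tested. CXCR5 ratios were 1.41, 1.63 and 0.93 in the cultures of GM10835, 0.34, 0.26 and -0.26 in GM07029 and -0.16, -0.26 and -0.16 in GM12813. GM10835 did not overlap with the others, which overlapped each other. GM10835 exceeded GM12813 by 1.52 ± 0.20 (SE, adjusted p = 0.000529) and GM07029 by 1.21 ± 0.20 (adjusted p = 0.00444; F test, adjusted p = 0.00116). The CXCR5 call held without any 1 of the 9 cultures. Both other lines lay near the nascent background of 6.84, however, at 7.21 in GM07029 and 6.93 in GM12813. The size of the CXCR5 ratio difference is thus uncertain.

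S1PR2 ratios were 1.02, 0.80 and 0.68 in GM10835, 0.49, 0.30 and 0.24 in GM07029 and 0.32, 0.16 and 0.25 in GM12813. GM10835 lay above both other lines (adjusted p = 0.0283 and 0.00735; F test, adjusted p = 0.0128), although its total RNA did not differ from GM07029 past the threshold (-0.02 ± 0.09 SE, adjusted p = 0.851). The S1PR2 call was lost without the first culture of GM10835 (adjusted p = 0.0553), and then only CXCR5 of the 9 was called. CCR6 ratios were 0.59, 1.16 and 0.65 in GM07029, 1.23, 1.29 and 1.42 in GM10835 and 1.27, 1.49 and 1.68 in GM12813 (F test, adjusted p = 0.0329). Only GM12813 against GM07029 passed for CCR6 (0.68 ± 0.18 SE, adjusted p = 0.0457), and the F test kept its call without 2 of the 9 cultures and lost it without each of the other 7. It was also lost with no filter (adjusted p = 0.0839), with the first duplicate array alone (0.147) and with a plain F test (0.0886).

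The ratios of the remaining 6 did not pass, with ranges of line means from 0.21 for CCR7 to 0.50 for GPR183 and adjusted p from 0.0663 (S1PR1) to 0.378 (CXCR4). CCR9 ratios were 0.72 ± 0.11 in GM10835, 0.33 ± 0.53 in GM07029 and 0.32 ± 0.27 in GM12813 (adjusted p = 0.306), beside level differences of several log2 units in both fractions. Such a p does not show that the ratios were equal.

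Across all 7 lines GM10835 stood at an end of most receptors. It had the highest ratio for 7 of the 9 (all but CCR6 and CCR10), where it had the highest ratio for 24.6% of all clusters tested and the lowest for 22.6%. Its nascent RNA was highest for 7 of the 9 (all but CCR6 and S1PR2), against 35.6% of all clusters, and its total RNA for 4 (CXCR4, CXCR5, CCR7 and CCR9), against 30.2%. GM12815 had the lowest ratio for 4 (CCR7, CCR10, S1PR1 and S1PR2), against 18.3% of clusters, and GM07019 for another 4 (CXCR4, CXCR5, CCR9 and GPR183), against 8.92%. These counts are descriptions, since the receptors share the same arrays. Lines with high total RNA also had high nascent RNA for CCR9 (Pearson r = 0.99 over 7 lines), CCR7 (0.92), CCR6 (0.88) and CXCR4 (0.88), and less so for CCR10 (0.44) and S1PR1 (0.35). Of all pairs of the 9, GPR183 and S1PR1 had the most closely matched ratios over the 7 lines (r = 0.97). Both values of a line came from the same arrays, and total RNA of this pair matched less (r = 0.69). For ratios, CXCR5 and GPR183 came next (r = 0.92), and CXCR4 and CCR10 were lowest (r = -0.24).

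Other genes with the same pattern of total RNA over the 7 lines were looked up for each receptor as the 3 highest Pearson correlations among clusters with 1 symbol. With 7 points and so many clusters, high values are given as descriptions only. For CCR9 these were RTRAF, the actin-severing factor CFL1 and DNAJB11 (r from 0.991 to 0.997), for CCR6 the Ikaros-family factor IKZF2 (0.996), CDC14A and RIMOC1, and for CXCR4 HADH, GALK1 and SLC37A4 (0.98 to 0.99). GPR183 was followed by the integrin chain ITGB2 (0.95), the kinase SYK (0.95) and NKAPP1, CCR7 by GOLGA7, OXNAD1 and FAAP24, and CCR10 by EIF3L, the surface protein CD47 (0.97) and SHLD1. CXCR5 was followed by WDR46, CHCHD4 and ECE1, S1PR1 by PLD3, ZNF76 and SHKBP1, and S1PR2 by PPM1F, FBLN7 and PPP1R37 (0.86 for the last).

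The wider pathway was read from 6 lists of genes, whose counts stand beside 31.7% of all clusters higher and 31.7% lower. Of 34 other chemokine and leukocyte receptors, 26 were on the array with a cluster of their own and 12 above background, and of these 4 had a higher and 2 a lower ratio over 7 lines (median 0.14). The lipid receptor GPR55 stood at 1.54 ± 0.36 (n = 7 lines, adjusted p = 1.80e-06) and GPR174, a receptor for lysophosphatidylserine, at 0.97 ± 0.49 (adjusted p = 0.000177). CCR1 (-0.55, adjusted p = 0.0116) and S1PR5 (-0.24, adjusted p = 0.0485) were lower. CCR1, a receptor for inflammatory chemokines, ranged in total RNA from 5.88 in GM12813, under background, to 7.29 in GM07029 among the replicated lines (adjusted p = 0.00163). The CXCL12 scavenger ACKR3 ranged over 1.04 (6.97 in GM07029, and near background at 5.96 in GM10835 and 5.93 in GM12813).

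Most of the ligands were not detected above background in these cells. Of 20 ligand genes and enzymes of lipid ligands, 15 had a cluster and 8 passed background, and CXCL12, CXCL13, CCL19, CCL20, CCL21, CCL25 and CH25H were among those below it. Of the 8, 3 had lower and 1 a higher ratio (median -0.18). CYP7B1, the hydroxylase that makes the GPR183 ligand, stood at -1.73 ± 0.45 (n = 7 lines, adjusted p = 1.87e-06), and its total RNA differed by 1.88 between GM07029 (10.56) and GM10835 (8.68; F test, adjusted p = 2.46e-06). The CCR10 ligand CCL28 stood at -0.61 ± 0.26 (adjusted p = 0.000167), and PLPP3, which removes phosphate from lipids such as sphingosine 1-phosphate, at 0.24 (adjusted p = 0.0223), with total RNA of 8.40 in GM07029 and 7.60 in GM10835.

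Behind the receptors, 24 of 26 genes of G proteins and receptor regulation were tested, with 13 lower, 5 higher and 6 not past the threshold (median -0.28). GNG2, a G protein gamma subunit, stood at -1.11 ± 0.21 and RGS13, which shortens G protein signals, at -0.89 ± 0.37, whereas the receptor kinase GRK5 stood at 1.32 ± 0.24 and the ubiquitin ligase ITCH, which sends CXCR4 to degradation, at 0.98 ± 0.21. Between the 3 lines, total RNA of the arrestin ARRB1 ran from 6.16 in GM10835 to 8.01 in GM12813 and that of RGS1 from 9.79 in GM10835 to 11.59 in GM07029, so both were lowest in GM10835.

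Of 26 tested genes of migration signalling 10 were higher, 8 lower and 8 not past the threshold (median 0.08). The small GTPase RAP1B passed the filter through its nascent RNA, and its mean total RNA (5.16) was under background, so its ratio has no measured size. Its total RNA stood at 7.01 in GM07029, 6.24 in GM10835 and 4.89, under background, in GM12813. RAC1 was a like case, so that 2 of the 10 higher calls rest on such clusters. The PI3-kinase subunit PIK3R1 had a ratio of 1.21 ± 0.26. MSN, which links receptors and adhesion molecules to actin, stood at -1.54 ± 0.16, and the GTPase RAC2 of blood cells at -0.96 ± 0.20. TAGAP, a GTPase-activating protein, had total RNA of 7.19 in GM10835 and 5.32 in GM07029, the latter under background.

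Of 15 tested adhesion and homing molecules 11 had ratios below and 1 above the median cluster (median -0.57). ICAM3, a ligand of the integrin LFA-1, stood at -1.60 ± 0.46 and the integrin chain ITGB1 at -1.01 ± 0.27, and only VCAM1 was called higher, with mean total RNA under background (5.89) and hence no measured size. All 15 differed between the 3 lines in total RNA, against 56.3% of all clusters, with PECAM1 widest, at 9.04 in GM12813, 7.71 in GM07029 and 6.46 in GM10835. ITGB1 was also lowest in GM10835 (7.79, against 9.48 in GM07029 and 8.75 in GM12813). Of 15 tested transcription factors that act on these genes 5 were higher and 3 lower (median 0.03). PRDM1, which drives plasma cell fate, stood at 1.17 ± 0.17 and PAX5, which keeps B cell identity, at 1.06 ± 0.15, whereas the coactivator POU2AF1 (-0.51 ± 0.19) and the NF-kB subunit RELB (-0.46 ± 0.30) were lower. PRDM1 total RNA was highest in GM10835 (8.69) and lowest in GM12813 (7.44) of the replicated lines, and HIF1A ranged over 0.88, lowest in GM10835 (9.45).

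**Figure D4:**
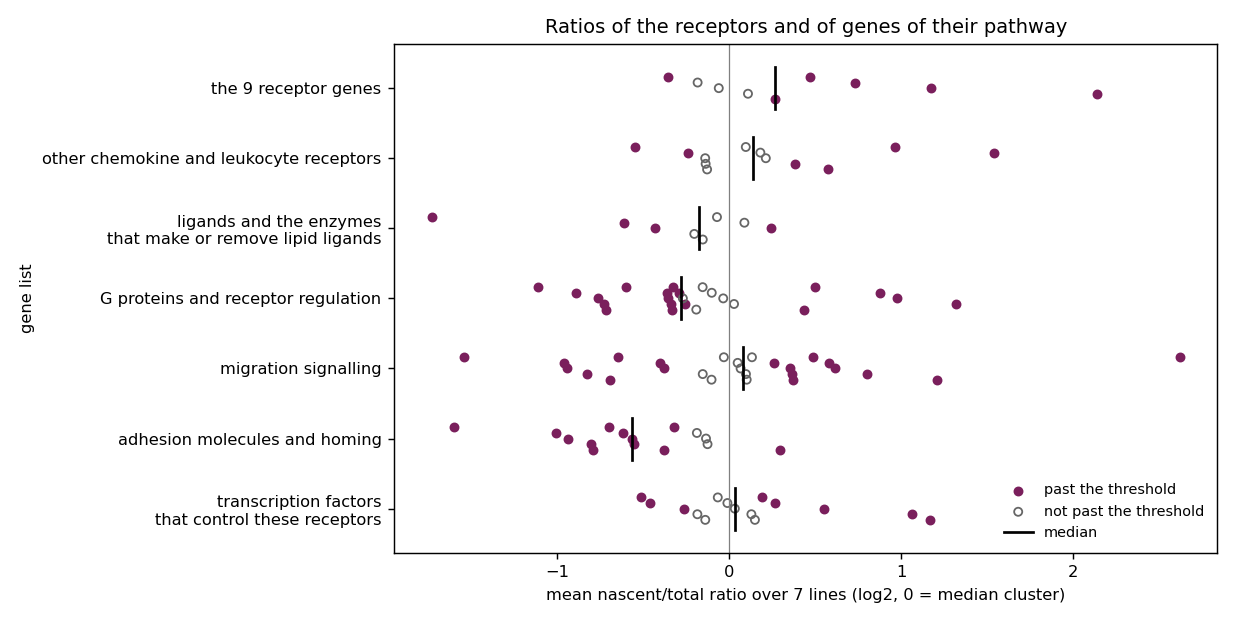
Mean nascent/total ratio over 7 lines (log2, 0 being the median cluster) of the 9 receptor genes and of the tested genes of 6 pathway lists, 1 point per gene, filled where the adjusted p passed the threshold, with a bar at each list's median. Medians run from -0.57 for adhesion molecules to 0.27 for the 9 receptors, and every list holds genes on both sides of 0.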

How the data were processed

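The deposited values were the authors' log2 gene-level intensities per transcript cluster. Affymetrix Power Tools and build hg18 are named, per the submitters' processing notes; for the summary algorithm, background correction and scaling between fractions, the entry is "not given in the sources used here". Per the labels' protocols, ribosomal RNA was depleted ahead of cDNA synthesis. Symbols came from the platform's table, updated through a RefSeq table for 14377 of 14405 clusters with 1 symbol (2365 had several, 5018 none). Technical duplicates were averaged, the ratio was centred on each culture's median, and clusters above the olfactory background were tested with limma 3.58.1 (R 4.3.3; lmFit, eBayes with a trend, two-sided). Lines were the units over 7 lines and independent cultures those between 3 lines. P-values were adjusted over 14167 clusters by the Benjamini-Hochberg method.

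The fits were tested on simulated data. Of ratio differences of 0.5 log2 set in GM10835 among the 3 lines, 13.1% were called, and of differences of 1, 86.4%. For differences of 0.5 in levels, 27.9% were called in total RNA and 63.9% in nascent RNA. The number of arrays limits precision.

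The receptors and the pathway lists were chosen with earlier results of these data known. All receptors were to be named; of each list, the 2 highest and 2 lowest ratios and 2 widest total RNA ranges past the threshold; and 3 correlated clusters per receptor. The motifs were picked after the values were seen.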

Additional observations from a re-analysis of the deposited data

Results flagged for a closer look

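The nascent RNA of CXCR5 in GM10835, 9.72, stood far from the other 6 lines, the next being 7.21 in GM07029, a gap of 0.748 of the whole range, past Dixon's limit. This was 1 of 27 sets of 7 lines examined in this way (9 receptors in 3 measures), and chance gives about 1 in 20.

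The nascent/total ratio differed between GM07029, GM10835 and GM12813 by the moderated F test for CXCR5 (range of line means 1.52), CCR6 (0.68) and S1PR2 (0.59). For CXCR5 the range was larger in nascent RNA (2.79) than in total RNA (1.25), with nascent RNA of GM12813 near background. For CCR6 it was larger in total RNA (1.91, against 1.47), with total RNA of GM10835 under background. For S1PR2 the ranges were near each other (0.53 in nascent and 0.61 in total RNA), but GM07029 was lowest in nascent and GM10835 in total RNA. What these differences rest on was not tested.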

How the results depend on the processing

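Of 603 gene values under alternative settings 567 kept their direction and their side of the threshold, 19 lost and 11 gained a call and 6 turned. Without centring, 0 receptors were lower and 9 higher over 7 lines (762 clusters lower, 11639 higher). CXCR5 (0.59), CCR7 (0.42) and CCR10 (0.71) turned positive, but stayed under the median cluster at 0.77. After a signal trend was taken out of the ratios, 0 were lower, CCR7 turned to 0.10, and 7 receptors (3899 clusters) differed between 3 lines; with quantile normalization 5 (4052 clusters) did. Leaving out 1 line gave GPR183 means from -0.027 (without GM10835) to 0.22 and CCR10 means from -0.14 to 0.075 (without GM12815), neither called. Clusters called for the ratio between 3 lines fell to 2012 with no filter, 2142 with the first duplicate array alone and 2279 with a plain F test. With arrays centred on their median, all 9 receptors still differed in total RNA (8658 clusters) and in nascent RNA (7910 clusters). Their nascent ranges between 3 lines then became smaller, as from 1.06 to 0.81 for S1PR1 and from 1.79 to 1.54 for CXCR4. Only that of CCR6 grew, from 1.47 to 1.66.

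Leaving out a line gave 1 to 2 receptors lower (2 without GM10835, CXCR5 being added) and 4 to 5 higher, and leaving out a culture 1 to 3 receptors and 1808 to 5065 clusters called for the ratio (3595 with all cultures). The cause of these changes was not tested. Deviations of same-numbered cultures from their line means correlated from -0.46 to 0.39 over the 3 measures. Differently numbered cultures were not compared, so whether the numbers pair the samples was not tested. A replicate block called 3 receptors and 2458 clusters for the ratio and changed no receptor's call. Array signal near background limits CXCR5, CCR9 and, in GM10835, CCR6.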
